A study of Mus musculus with 6 samples.

Results

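The interleukin-1 genes described here are Il1a, Il1b, Il1rn, Il1r2 and Nlrp3, 5 of the 33696 genes counted in immune cells of mouse mammary tumours. They are found by gene symbol, so no measured value enters the rule, but the set was proposed with earlier results of these data known. They are described in the neutrophil-like, monocyte-like, macrophage-like and dendritic-like cells of 5 libraries. Live CD45+ cells (leukocytes, which all bear this phosphatase on their surface) had been sorted from the tumours and captured for droplet-based single-cell RNA sequencing of transcript 3' ends. The title of the series speaks of blocking MERTK, a kinase receptor by which macrophages take up dying cells, together with cyclophosphamide, an alkylating chemotherapy drug, in triple negative breast cancer. The labels give 1 library for each of the treatments MRX, CTX, Combined, ctxd18t and combod18t and do not spell these out. A library labelled VC was not analysed here. The protocol, which is the same on every sample, speaks of day 7 mice treated 3 hours before harvest. The label d18 of the other two libraries is read here as day 18. The strain, the age and the number of animals behind a library are not given in the sources used here.

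Before any result, the labels of the day 18 libraries need a remark. In this chemistry the samples of a chip are told apart by a barcode set, and the protocol assigns separate sets to Combined, CTX, MRX and VC. All barcodes of ctxd18t carried the bases that mark the set of Combined, and all barcodes of combod18t those that mark the set of CTX. The protocol gives no sets for the day 18 libraries, so the direction of every day 18 comparison rests on the labels alone. The barcodes shared by libraries numbered 34 between CTX and combod18t, 21 between Combined and ctxd18t and 0 between the other pairs. Libraries of different sets cannot share a barcode, so the values of 0 follow from the sets. How many barcodes unrelated libraries of the same set would share was not computed. With 1 library per treatment no difference had a replicate check and no test was run. The intervals given are at 95% and reflect counting error alone, so animals may vary by more.

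Interleukin-1 alpha and interleukin-1 beta, the products of Il1a and Il1b, are inflammatory cytokines that act on the same receptor, Il1r1. Il1rn encodes the receptor antagonist, which occupies that receptor without starting a signal, and Il1r2 encodes a decoy receptor that binds interleukin-1 and has no signalling domain. Nlrp3 encodes the sensor of an inflammasome, a complex that activates caspase-1, which in turn cleaves the interleukin-1 beta precursor. Myeloid cells are known as main sources of these transcripts in inflamed tissue. Transcript counts do not measure cleavage or release of the proteins.

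The promoters of the genes are shown because the ligands, the antagonist and the sensor were found in the same cells at different levels. RefSeq promoter entries of build GRCm38.p6, 250 bases before to 50 after the gene start, were found for 5 of 5 genes, with 3 entries for Il1rn and 2 for Nlrp3. The submitters' processing notes name another build, GRCm39, so these coordinates belong to the RefSeq table alone. Each window was searched for NF-kB, C/EBP (TTNNGNAA), AP-1 (TGANTCA) and PU.1 (GAGGAA) motifs on both strands and for TATAAA on the gene's own strand. Capitals mark every match. Il1a at chr2:129309923-129310222 and Il1b at chr2:129371090-129371389 lie on the minus strand. The first Il1rn entry at chr2:24336610-24336909 and the first Nlrp3 entry at chr11:59541319-59541618 lie on the plus strand.
Il1a: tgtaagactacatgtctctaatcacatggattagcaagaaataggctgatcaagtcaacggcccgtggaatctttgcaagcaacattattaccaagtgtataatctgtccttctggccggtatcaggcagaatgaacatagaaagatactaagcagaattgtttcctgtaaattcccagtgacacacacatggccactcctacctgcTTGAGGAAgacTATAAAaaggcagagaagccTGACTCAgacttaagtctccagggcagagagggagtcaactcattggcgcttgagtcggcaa
Il1b: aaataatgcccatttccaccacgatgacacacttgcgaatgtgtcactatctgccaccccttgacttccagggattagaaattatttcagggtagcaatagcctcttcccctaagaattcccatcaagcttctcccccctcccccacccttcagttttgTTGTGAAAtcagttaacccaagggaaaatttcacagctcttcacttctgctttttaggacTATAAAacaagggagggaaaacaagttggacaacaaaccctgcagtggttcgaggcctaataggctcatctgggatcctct
Il1rn: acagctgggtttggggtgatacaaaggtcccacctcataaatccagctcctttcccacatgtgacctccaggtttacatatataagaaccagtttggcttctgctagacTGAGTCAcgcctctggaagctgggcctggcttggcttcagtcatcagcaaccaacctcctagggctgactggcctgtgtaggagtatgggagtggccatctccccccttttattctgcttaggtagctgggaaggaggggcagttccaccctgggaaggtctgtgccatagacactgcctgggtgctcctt
Nlrp3: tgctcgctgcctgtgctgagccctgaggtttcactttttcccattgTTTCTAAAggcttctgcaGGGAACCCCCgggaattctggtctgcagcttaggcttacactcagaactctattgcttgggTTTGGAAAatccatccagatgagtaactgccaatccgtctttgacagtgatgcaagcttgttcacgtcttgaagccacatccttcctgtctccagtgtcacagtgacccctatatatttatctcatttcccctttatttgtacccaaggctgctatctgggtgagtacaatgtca
Both ligand genes held TATAAA, beginning at position -32 of Il1a and -31 of Il1b, where the gene start is position 0; 8.32% of 32851 promoters of this length held it on the same strand. AP-1 matches began at -12 of Il1a and -141 of this Il1rn entry, against 7.81% of promoters with a match. The Nlrp3 entry held the only NF-kB match, at -186, against 4.51% of promoters. C/EBP matches (in 40.7% of promoters) began at -43 of Il1a, -91 of Il1b, and -204 and -125 of Nlrp3. A PU.1 match (in 28.3% of promoters) began at -41 of Il1a and overlapped its C/EBP match. The Il1r2 window held no match to any of these motifs. The other Il1rn entries held C/EBP matches alone, and the second Nlrp3 entry held C/EBP and PU.1 matches. These matches are letters in a window, not evidence of binding.

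UMIs, the molecular tags that let each captured transcript be counted 1 time, summed to 39820290 to 100733879 per library. After filters, 25653 cells were kept, from 3845 in ctxd18t to 8506 in CTX, and formed 25 clusters. The 4 classes were named from marker genes. Neutrophil-like cells, led by S100a8, S100a9, Cxcr2 and Hdc, numbered 77 in Combined, 93 in CTX, 459 in MRX, then 297 in combod18t and 345 in ctxd18t. Monocyte-like cells, from a cluster led by Vcan, F13a1 and Fn1 and one led by the interferon-induced genes Mx1 and Rsad2, numbered 352, 1136, 734, 100 and 324 in the same order. Macrophage-like cells, led by C1qa and Ms4a7, numbered 270, 1784, 567, 111 and 337. They include a small cluster of 28 cells over the libraries that was led by Ccl8 and Folr2. Dendritic-like cells, from a cluster led by Cd209a and Mgl2 and a smaller one led by Fscn1 and Ccl22, numbered 99, 442, 188, 85 and 157. A further cluster was led by Ly6i and Cxcl9. It scored highest for monocyte markers but had 0 of them and 1 marker of nonclassical monocytes among its 10 leading genes, so it stands apart, with 549, 1380, 53, 14 and 49 cells. Neutrophil-like cells did not look alike across libraries. Their summed neutrophil markers (10 genes, all detected in every library) came to 36934 CPM (counts scaled by the total of the class) in Combined, 43153 in CTX, 67738 in MRX, then 65126 in combod18t and 60104 in ctxd18t. Their summed monocyte markers (10 genes) were 5930.5 CPM in CTX and 5522 in Combined, against 2354 to 2956 in the other libraries. Summed macrophage markers (11 genes) there ran from 749.8 in MRX to 1959.7 in CTX. The part of these differences in the neutrophil results below was not tested.

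Il1b, the inflammatory ligand that needs cleavage, was the most abundant of the genes in every class and library. In neutrophil-like cells its level in CPM was 19832 in Combined, 15525 in CTX, 16279.9 in MRX, then 17531 in combod18t and 20085 in ctxd18t. The highest and the lowest of these levels were close to each other beside the distance to any other class. Monocyte-like cells held 3120.0 in Combined, 3247 in CTX, 2388 in MRX, then 2185 in combod18t and 3887 in ctxd18t. Macrophage-like cells held 2773 in Combined, 3161 in CTX, 2489 in MRX, then 2066 in combod18t and 2942 in ctxd18t. The combod18t library was lowest in both of these classes, and ctxd18t was highest in the monocyte-like class. Dendritic-like cells held 2509 in Combined, 2393 in CTX, 2886 in MRX, then 1387 in combod18t and 2633 in ctxd18t, with combod18t again lowest. The Ly6i-led cluster was steady, at 4023 to 4632 CPM over the 4 libraries with at least 20 of its cells. The neutrophil level was 4.91 to 8.48 times the macrophage level and 5.64 to 12.6 times the dendritic level over the 5 libraries. NK-like and B-like cells, taken as cells that should lack the gene, held 8.85 to 24.8 and 11.5 to 36.8 CPM, which stands as the background level.

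The share of cells with an Il1b UMI was, like the level, highest in neutrophil-like cells, and overlapped among monocyte-like, macrophage-like and dendritic-like cells. Each cell was thinned to 1000 UMIs for this. An Il1b UMI was then seen in 95.5 to 97.4% of neutrophil-like, 59.4 to 73.9% of monocyte-like, 62.7 to 74.6% of macrophage-like and 51.2 to 67.4% of dendritic-like cells over the libraries. NK-like cells reached 0.935 to 2.35%. Without thinning the shares were 98.6 to 99.3%, 87.7 to 94%, 88.5 to 93.1%, 83.5 to 89.8% and 7.29 to 12%. Median depths were 2856 to 4263 UMIs in neutrophil-like, 8538 to 13017 in monocyte-like, 7840 to 13864 in macrophage-like, 10716 to 23615 in dendritic-like and 7576 to 9293 in NK-like cells. Within the monocyte-like and macrophage-like classes, the 10% of cells with the most Il1b counts held 38.1 to 43.8% and 35.2 to 42% of the class's Il1b counts. In neutrophil-like cells those 10% held 26.9 to 29.1%.

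Il1a, the ligand that is active without cleavage, was 25.7 to 115 times as abundant in neutrophil-like as in macrophage-like cells over the 5 libraries, and 47.7 to 132 times as abundant as in monocyte-like cells. Its level in neutrophil-like cells was 1581 in Combined, 805 in CTX, 389.6 in MRX, then 912 in combod18t and 649 in ctxd18t. The Combined library was the highest and MRX the lowest, and no pair of the 5 counting intervals overlapped except those of CTX and combod18t. Monocyte-like cells held 7.84 to 13.6 CPM, macrophage-like cells 5.47 to 29.5, the Ly6i-led cluster 18.7 to 28.7 and dendritic-like cells 0.478 to 3.70. B-like and NK-like cells held at most 0.606 CPM, from 0 to 4 counts. After thinning, the percentage of neutrophil-like cells with an Il1a UMI was 52 in Combined, 31.1 in CTX, 21.6 in MRX, then 28.7 in combod18t and 21.1 in ctxd18t. Without thinning it was 68.8 in Combined, 45.2 in CTX, 35.9 in MRX, then 44.4 in combod18t and 37.7 in ctxd18t. A few cells carried much of the signal. The 10% of neutrophil-like cells with the most Il1a held 51 to 78.9% of the counts, and 1 cell of ctxd18t held 109 of its 1193. Counts from 1 cell are not independent, so the counting intervals of Il1a are narrower than the spread over cells would make them.

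Il1rn, the receptor antagonist, was highest in neutrophil-like and lowest in dendritic-like cells among the 4 classes in every library. In neutrophil-like cells its level in CPM was 1623 in Combined, 1277 in CTX, 1571 in MRX, then 1703 in combod18t and 1814 in ctxd18t. Monocyte-like cells held 339.7 in Combined, 324 in CTX, 205 in MRX, then 240.3 in combod18t and 293 in ctxd18t. Macrophage-like cells held 358 in Combined, 329.5 in CTX, 236 in MRX, then 235 in combod18t and 315 in ctxd18t. In both of these classes CTX and Combined were above MRX and combod18t. Dendritic-like cells held 115 in Combined, 144 in CTX, 76.6 in MRX, then 53.1 in combod18t and 56.4 in ctxd18t, with CTX and Combined again highest. Monocyte and macrophage levels had intervals of their ratio that included 0 (log2) in CTX, Combined and combod18t. NK-like cells held 0.879 to 3.15 CPM. Among monocyte-like cells, the interferon-gene cluster held 499.6 to 596 CPM over the 4 libraries with at least 20 of its cells, and the Vcan-led cluster held 176 to 288 over all 5. These ranges do not overlap. Il1b in the same clusters overlapped, at 1628 to 3905 and 2223 to 4023 CPM.

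Il1r2, the decoy receptor, had a different order, with dendritic-like cells second in 5 of 5 libraries. In neutrophil-like cells its level in CPM was 2160.3 in Combined, 1109.7 in CTX, 4003 in MRX, then 2616 in combod18t and 2417 in ctxd18t, with MRX highest and CTX lowest. Dendritic-like cells held 509.9 in Combined, 407 in CTX, 806 in MRX, then 453 in combod18t and 581 in ctxd18t, again with MRX highest and CTX lowest. Macrophage-like cells held 271 in Combined, 204 in CTX, 314 in MRX, then 231 in combod18t and 199.9 in ctxd18t. Monocyte-like cells held 185 in Combined, 141 in CTX, 202 in MRX, then 156 in combod18t and 171 in ctxd18t, and MRX was highest in both of these classes. NK-like cells held 0.879 to 3.15 CPM. After thinning, an Il1r2 UMI was seen in 62.2 to 88.9% of neutrophil-like and 26.2 to 41.7% of dendritic-like cells, against 0 to 0.328% of NK-like cells. Without thinning these shares were 91.4 to 97.4%, 61.8 to 82.4% and 0.935 to 2.78%. NK-like cells are a low background for this gene. B-like cells held 9.36 to 24.7 CPM of it and T-like cells 25.6 to 78.9. Among dendritic-like cells the Cd209a-led cluster held 426 to 852 CPM. The cluster led by Fscn1 and Ccl22, genes of migratory dendritic cells, held 125 in CTX and 87.4 in ctxd18t, the libraries with at least 20 of its cells. Il1b was also lower there, at 1034 and 1107 CPM, against 2485 and 2984 in the Cd209a-led cluster of the same libraries.

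Nlrp3, the inflammasome sensor, stood at nearly the same level in monocyte-like and macrophage-like cells of each library. In neutrophil-like cells its level in CPM was 1006 in Combined, 901 in CTX, 1092 in MRX, then 1374 in combod18t and 1229 in ctxd18t. Monocyte-like cells held 236 in Combined, 221 in CTX, 239 in MRX, then 311 in combod18t and 265 in ctxd18t. Macrophage-like cells held 230.0 in Combined, 236 in CTX, 235 in MRX, then 322 in combod18t and 275 in ctxd18t, and dendritic-like cells 119 in Combined, 165 in CTX, 146 in MRX, then 119 in combod18t and 169.8 in ctxd18t. The day 18 libraries were highest in the first 3 of these classes, combod18t before ctxd18t. Monocyte and macrophage levels differed by less than counting error in MRX, Combined, ctxd18t and combod18t. NK-like cells held 0 to 2.10 CPM. Neutrophil-like cells were the highest of the 4 classes in all 25 pairs of gene and library.

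**Figure D1:**
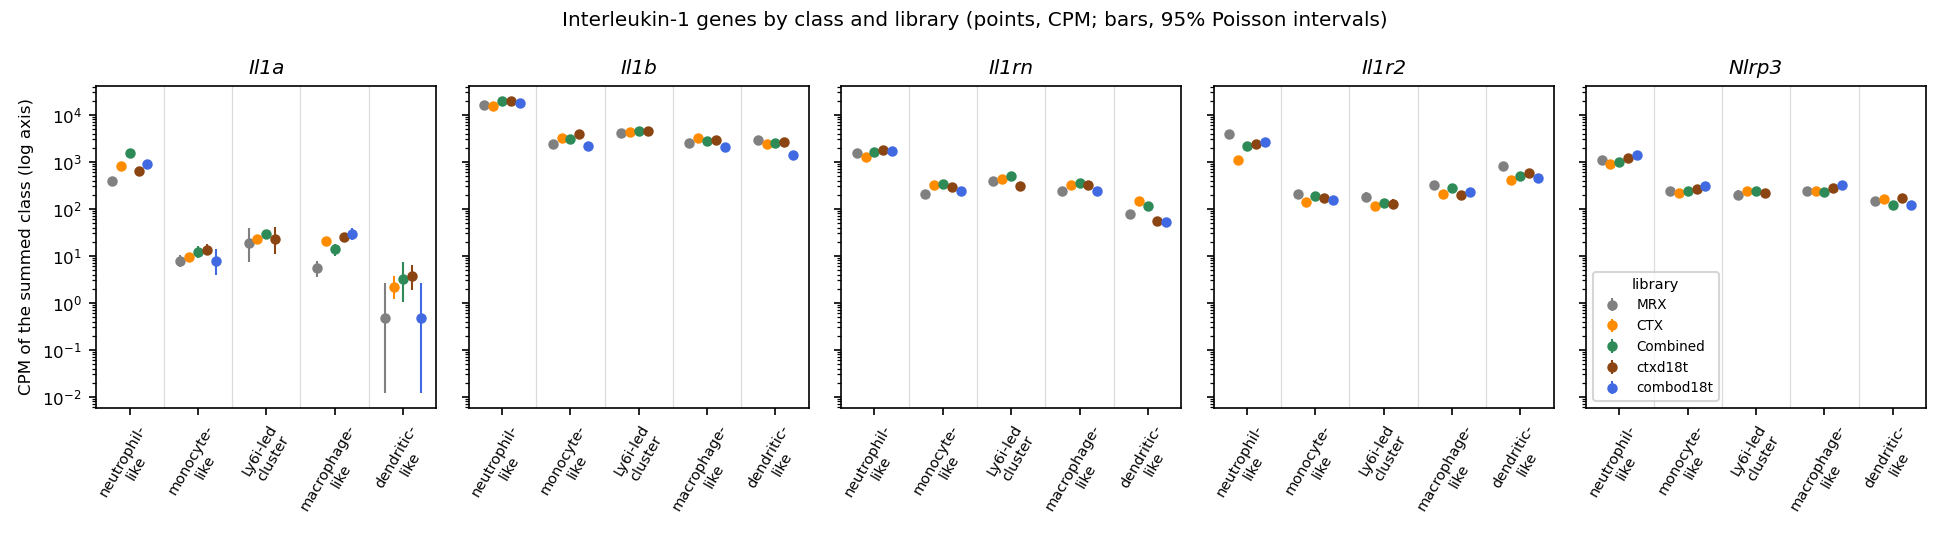
Level of each gene (CPM of the summed class, log axis) in the 4 classes and the Ly6i-led cluster, 1 point per library with its 95% Poisson interval; the Ly6i-led cluster of combod18t had 14 cells and is not drawn. Neutrophil-like cells are highest for every gene in every library, from 389.6 CPM of Il1a in MRX to 20085 CPM of Il1b in ctxd18t, and dendritic-like cells come second for Il1r2.

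The classes that held most of a transcript changed from library to library, as did their numbers of cells. The neutrophil-like share of kept cells was 1.80% in Combined, 1.09% in CTX, 8.88% in MRX, then 7.70% in combod18t and 8.97% in ctxd18t. Of all Il1b counts these cells held 8.29% (8.09 to 8.48) in Combined, 3.17% (3.10 to 3.25) in CTX, 38% (37.6 to 38.4) in MRX, then 63.3% (62.8 to 63.7) in combod18t and 38.1% (37.8 to 38.5) in ctxd18t (exact Clopper-Pearson intervals). In CTX most Il1b counts lay in macrophage-like cells (33.6%), the Ly6i-led cluster (28.5%) and monocyte-like cells (17.3%). In Combined the Ly6i-led cluster alone held 40.5%. Of Il1a counts, neutrophil-like cells held 55.4% in Combined, 25.7% in CTX, 82.4% in MRX, then 91% in combod18t and 73.5% in ctxd18t. In CTX the macrophage-like cells held 35% of Il1a counts, more than the 93 neutrophil-like cells did, although their level was 21.1 CPM. Neutrophil shares of Il1r2 counts ran from 3.74% in CTX to 57.3% in combod18t, and of Nlrp3 counts from 2.79% to 51.5%. The CD45 sort and the capture can set such shares of cells, and their part was not tested.

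**Figure D2:**
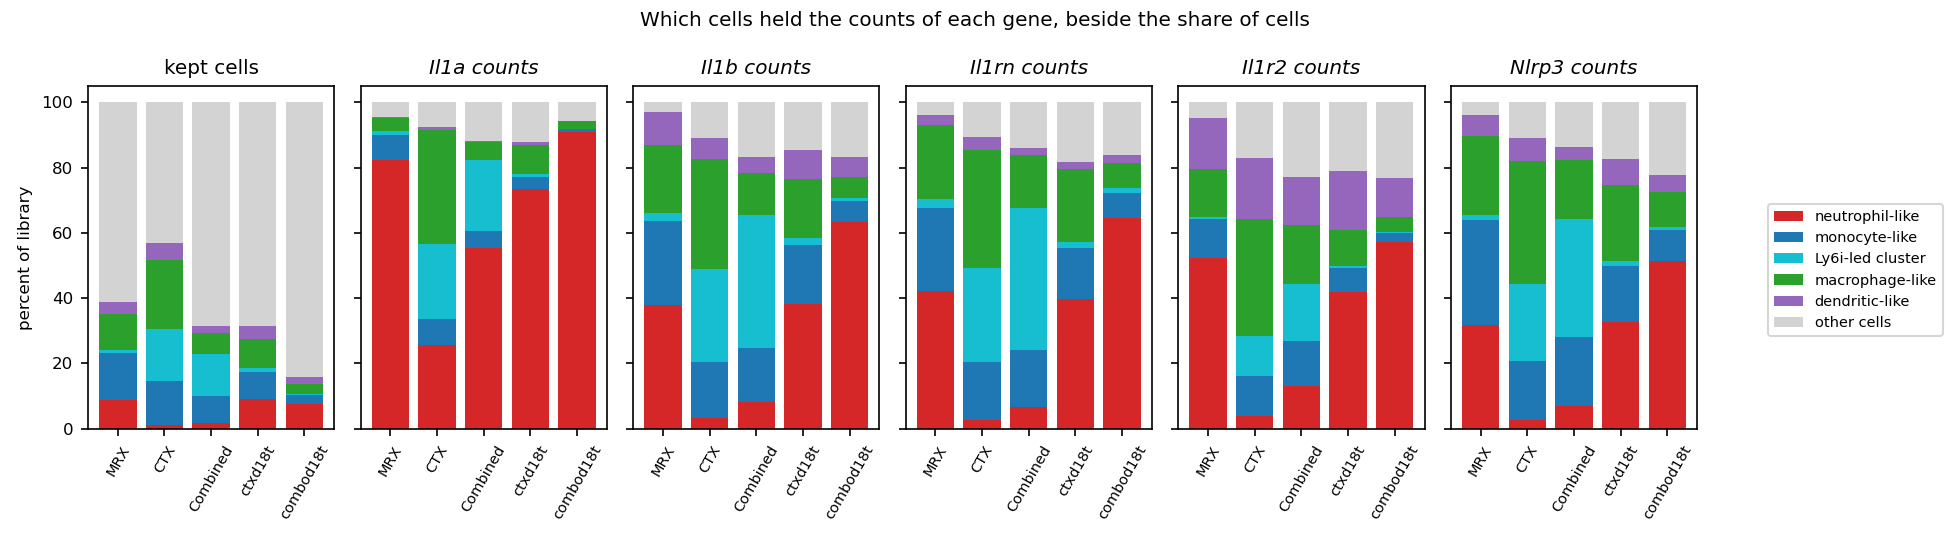
Share of kept cells and of each gene's counts (percent of the library) by class, 1 stacked bar per library; other cells include the clusters left out as mixed. Neutrophil-like cells hold 63.3% of Il1b counts in combod18t and 3.17% in CTX.

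The antagonist was scarcest beside the ligand in the dendritic-like class as a whole, in every library. Counts of transcript 3' ends do not grow with transcript length, although capture may differ between genes. Per 100 Il1b counts, neutrophil-like cells held 8.18 to 9.71 Il1rn counts, monocyte-like cells 7.53 to 11 and macrophage-like cells 9.49 to 12.9. Dendritic-like cells held 4.60 (3.94 to 5.35) in Combined, 6.01 (5.62 to 6.43) in CTX, 2.65 (2.25 to 3.11) in MRX, then 3.83 (3.14 to 4.63) in combod18t and 2.14 (1.84 to 2.48) in ctxd18t, all below the lowest value of the other 3 classes. Within that class the Cd209a-led cluster held 865 Il1rn and 14805 Il1b counts in CTX, and 171 and 7876 in ctxd18t. The cluster led by Fscn1 and Ccl22 held 50 and 414 in CTX, and 12 and 671 in ctxd18t. The low value of CTX was thus not shared by its smaller cluster. Macrophage-like cells of Combined had the highest value of a class, 12.9 (12.2 to 13.7). Combod18t stood above ctxd18t in monocyte-like cells, at 11 (9.80 to 12.3) against 7.53 (7.11 to 7.96), where both transcripts were lower in combod18t. The balance of the ligands set neutrophil-like cells apart. They held 7.97 (7.27 to 8.74) Il1a counts per 100 Il1b counts in Combined, 5.18 (4.66 to 5.75) in CTX, 2.39 (2.19 to 2.61) in MRX, then 5.2 (4.94 to 5.47) in combod18t and 3.23 (3.05 to 3.42) in ctxd18t. The highest value in the other 3 classes was 1.43 (1.04 to 1.91), in macrophage-like cells of combod18t. Those cells also carried summed neutrophil markers of 753 CPM, against 75.6 to 388 in the macrophage-like cells of the other libraries, with 2 of 10 at 0; the part of this in the value was not tested.

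**Figure D3:**
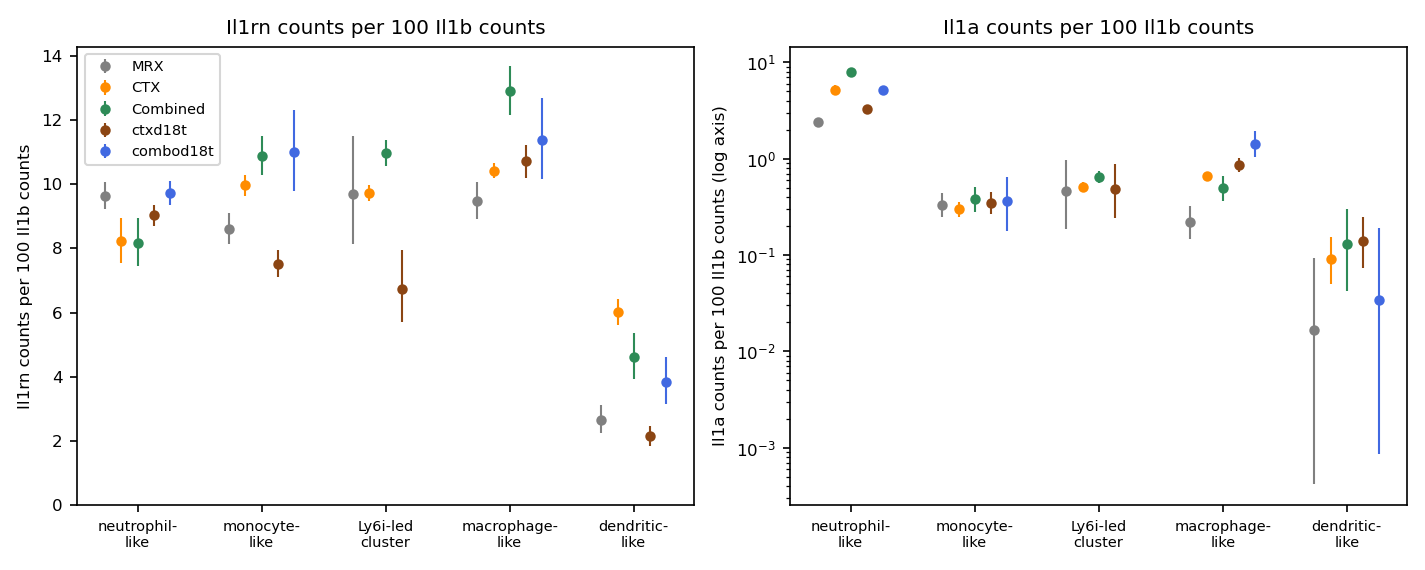
Il1rn counts (left) and Il1a counts (right, log axis) per 100 Il1b counts by class, 1 point per library with its 95% counting interval. Dendritic-like cells lie lowest on the left, at 2.14 to 6.01, and neutrophil-like cells highest on the right, at 2.39 to 7.97.

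Il1r2 was seen more often in cells with an Il1b UMI than in cells without one in 5 of 5 libraries of the macrophage-like and of the dendritic-like class, and in 4 of 5 of the monocyte-like class. The neutrophil-like class gives little on this, with 2 to 13 cells a library that lacked an Il1b UMI. The counting intervals of the shares were apart in 2 of these libraries for macrophage-like, 3 for dendritic-like and 0 for monocyte-like cells. After thinning, Il1r2 was seen in 19% (16.9 to 21.2) of cells with an Il1b UMI and 8.41% (6.02 to 11.4) of cells without one among macrophage-like cells of CTX. Among dendritic-like cells of MRX it was seen in 50% (41 to 59) of cells with an Il1b UMI and 24.6% (14.5 to 37.3) of cells without one. Among dendritic-like cells of CTX it was seen in 31.7% (26.2 to 37.6) of cells with an Il1b UMI and 17.5% (12.2 to 24.1) of cells without one. The dendritic-like class joins clusters in which both genes differ (above), and the part of this in the shares was not tested. In monocyte-like cells of CTX the shares were close, with Il1r2 in 11.6% (9.52 to 14) of cells with an Il1b UMI and 10.7% (7.49 to 14.6) of cells without one. The other genes were also seen more often with Il1b in many libraries. In macrophage-like cells this held for Il1a, Il1rn and Nlrp3 in 5 of 5 libraries each. In monocyte-like cells it held for Nlrp3 in 5, Il1rn in 4 and Il1a in 3 of 5, and in dendritic-like cells for Nlrp3 in 4, Il1rn in 4 and Il1a in 2 of 5. The intervals of these genes were apart in 0 libraries of the 3 classes. These intervals treat cells as independent and describe single libraries.

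Combined against CTX would bear on what the MERTK inhibitor adds to cyclophosphamide, if the labels stand for the drugs named in the title. The labels do not say this, and 1 library stands on each side. Il1a and Il1r2 of neutrophil-like cells had the ratios farthest from 0. The log2 ratio of CPM + 1 was 0.97 (interval 0.78 to 1.17) for Il1a and 0.96 (interval 0.79 to 1.13) for Il1r2, just short of the size for a call. A ratio was called when it was at least 1 in size, its interval excluded 0 and the gene had at least 100 counts over both libraries. By that rule 0 of 19 values with enough counts were called over the 4 classes. Of all genes with enough counts, 7.58% were called in neutrophil-like, 0.526% in monocyte-like, 0.601% in macrophage-like and 1.79% in dendritic-like cells. When each library was clustered separately, the neutrophil ratios of Il1a and Il1r2 were 1.84 and 1.62 and both were called. After thinning they were 0.78 and 0.41. Il1b was 0.35 in neutrophil-like, -0.06 in monocyte-like, -0.19 in macrophage-like and 0.07 in dendritic-like cells. Il1r2 was above 0 in the other 3 classes too, at 0.38 (interval 0.26 to 0.51), 0.41 (interval 0.31 to 0.51) and 0.32 (interval 0.21 to 0.44). In dendritic-like cells Il1rn was -0.31 (interval -0.56 to -0.08) and Nlrp3 -0.46 (interval -0.70 to -0.24). Macrophage markers (11 genes, 0 at 0) in that class summed to 694 CPM in Combined and 1505 in CTX, and their part in these values was not tested. Il1a in macrophage-like cells was -0.59 (interval -1.08 to -0.19), from 48 counts in Combined and 510 in CTX. The neutrophil values rest on 77 and 93 cells.

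In combod18t against ctxd18t, the values of Il1b lay below 0 in all 4 classes and farthest in the mononuclear ones. Its log2 ratio was -0.83 (interval -0.89 to -0.78) in monocyte-like, -0.51 (interval -0.57 to -0.46) in macrophage-like and -0.92 (interval -0.99 to -0.86) in dendritic-like cells, but -0.20 (interval -0.22 to -0.17) in neutrophil-like cells. By the same rule 0 of 18 values were called, against 2.36%, 2.16%, 2.39% and 2.96% of all genes in neutrophil-like, monocyte-like, macrophage-like and dendritic-like cells. In dendritic-like cells Il1b was called at -1.06 with libraries clustered separately and at -1.03 after thinning. Il1rn was -0.28 (interval -0.46 to -0.11) in monocyte-like and -0.42 (interval -0.59 to -0.26) in macrophage-like cells. Il1a in neutrophil-like cells was 0.49 (interval 0.38 to 0.60) and Il1r2 there was 0.11. If the labels of the day 18 libraries were exchanged, each of these values would turn its sign. Nlrp3 was 0.23 (interval 0.07 to 0.39) in monocyte-like, 0.22 (interval 0.08 to 0.37) in macrophage-like and -0.51 (interval -0.73 to -0.29) in dendritic-like cells. T cell markers (9 genes) summed to 1468 CPM in the dendritic-like cells of combod18t and 771 in those of ctxd18t, against 77.8 to 164 in the other libraries, and their part was not tested. Neutrophil markers in monocyte-like cells summed to 1361 CPM in ctxd18t and 968 in combod18t. Monocyte markers went from 3128 in ctxd18t to 1874 in combod18t in macrophage-like cells and from 1895 to 1298 in dendritic-like cells. Macrophage markers were at 14329 and 17821 in macrophage-like and at 4212 and 2881 in monocyte-like cells, and plasma cell markers in dendritic-like cells at 643 and 87.5. The part of these markers in the Il1b values was not tested.

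Against MRX, neutrophil-like cells of CTX held more Il1a and less Il1r2. The log2 ratio of CTX over MRX was 1.04 (interval 0.85 to 1.24) for Il1a and -1.85 (interval -1.98 to -1.72) for Il1r2. With Il1a in macrophage-like cells, 1.77 (interval 1.39 to 2.56), these were the 3 of 19 values called. Of all genes 21.1% were called in neutrophil-like, 2.99% in monocyte-like, 3.57% in macrophage-like and 6% in dendritic-like cells. The neutrophil-like class, which holds 2 of the 3 calls, thus also had the largest share of all genes called. Among all genes with enough counts in that class, Il1a exceeded 89.1% and Il1r2 1.06%, and in macrophage-like cells Il1a exceeded 99.2%. The median gene of neutrophil-like cells lay at -0.22, and relative to it Il1a stands further up and Il1r2 less far down, at 1.26 and -1.63 with median-of-ratios scaling. The Il1a call in neutrophil-like cells was lost, at 0.45, when each library was clustered separately. Il1r2 there held its call in 9 of 9 alternatives, from -2.30 with separate clustering to -1.13 after thinning. Il1a in macrophage-like cells rose from 27 to 510 counts (5.47 to 21.1 CPM), but was not called with at least 500 genes per cell (0.90), at clustering resolution 2 (0.81) or after thinning (0.52). Neutrophil markers in those cells summed to 118 CPM in MRX and 174 in CTX, with 0 of 10 at 0 in each. The make-up of the class also differed, with macrophage markers at 20291 CPM in MRX and 10733 in CTX and monocyte markers at 2454 and 4603. The part of these differences in the Il1a value was not tested. Il1r2 was also below 0 in monocyte-like (-0.51), macrophage-like (-0.62) and dendritic-like cells (-0.98), none of them called. Il1rn was above 0 in the same classes, at 0.65, 0.48 and 0.90, and not called. The monocyte-like value joins clusters in unequal shares, as the interferon-gene cluster gave 53 of 734 cells in MRX and 293 of 1136 in CTX. Within that cluster Il1rn was 565 CPM in MRX and 499.6 in CTX, and within the Vcan-led cluster 176 and 243. Macrophage markers in monocyte-like cells summed to 6773 and 3319 CPM. Neutrophil markers went from 418 CPM in MRX to 289 in CTX in monocyte-like cells, but from 54.1 to 89.8 in dendritic-like cells. The part of neutrophil markers in the Il1r2 values was not tested. In dendritic-like cells, macrophage markers summed to 789 CPM in MRX and 1505 in CTX, and monocyte markers (10 genes) to 1872 and 2887, with none of either list at 0. The level of Il1rn was higher in both of those cell types (above), and the part of these markers was not tested.

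In Combined against MRX, Il1a in neutrophil-like cells was called, at 2.02 (interval 1.84 to 2.20), and held its call in 9 of 9 alternatives, from 1.99 to 2.36. It exceeded the ratio of 98.3% of genes in that class. It was 1 of 17 values with enough counts, against 13.4%, 3.61%, 4.35% and 5.33% of all genes in neutrophil-like, monocyte-like, macrophage-like and dendritic-like cells. Il1r2 in neutrophil-like cells was -0.89 (interval -1.01 to -0.78). Il1rn was 0.72 in monocyte-like, 0.60 in macrophage-like and 0.59 in dendritic-like cells. The interferon-gene cluster gave 53 of 734 monocyte-like cells in MRX and 55 of 352 in Combined. Within that cluster Il1rn was 565 CPM in MRX and 562 in Combined, and within the Vcan-led cluster 176 and 288. Marker sums of the monocyte-like, macrophage-like and dendritic-like classes moved as well. Macrophage markers were at 20291 CPM in MRX and 11426 in Combined in macrophage-like cells, and at 6773 and 2668 in monocyte-like cells. Monocyte markers were at 2454 and 4462 in macrophage-like cells, and at 1872 and 3026 in dendritic-like cells. Their part was not tested. Nlrp3 lay between -0.28 and -0.02 in the 4 classes. The comparisons with MRX share that library, and those with CTX share CTX, so their values are not independent of each other.

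**Figure D4:**
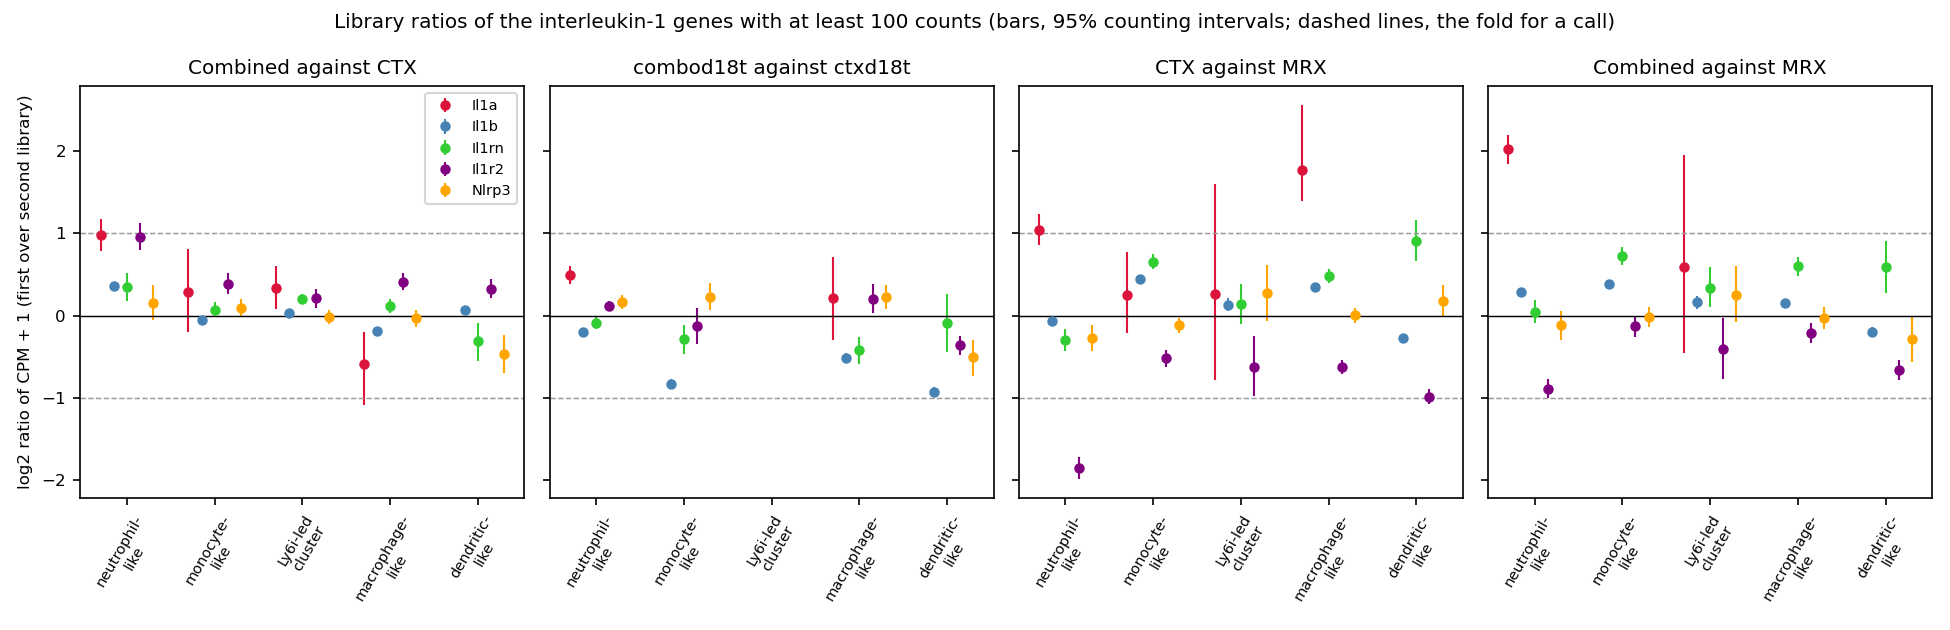
Log2 ratio of CPM + 1 (first over second library named above each panel) of genes with at least 100 counts, by class, with 95% counting intervals; the solid line marks 0 and the dashed lines the size for a call. Il1a in neutrophil-like cells of Combined against MRX, at 2.02, and Il1r2 in neutrophil-like cells of CTX against MRX, at -1.85, lie farthest from 0.

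Calls among 57 further genes of the pathway, in 6 lists, were few beside the number with enough counts, and the share of all genes called in the same direction stands beside each count. For Combined against CTX in neutrophil-like cells 3 of 20 were called higher and 1 lower, against 2.8% and 4.79% of all genes. Of pathway genes in monocyte-like cells 0 of 42 were called higher and 2 lower, against 0.122% and 0.403% of all genes. In macrophage-like cells 0 of 44 were called higher and 1 lower, against 0.137% and 0.464% of all genes. In dendritic-like cells 1 of 37 were called higher and 2 lower, against 0.474% and 1.32% of all genes. The neutrophil-like and dendritic-like classes held more of these calls than the other 2. They also had the larger shares of all genes called in either direction, 7.58% and 1.79%, against 0.526% in monocyte-like and 0.601% in macrophage-like cells. For combod18t against ctxd18t in neutrophil-like cells 0 of 36 were called higher and 1 lower, against 1.09% and 1.27% of all genes. At day 18 in monocyte-like cells 1 of 40 were called higher and 3 lower, against 0.634% and 1.52% of all genes. In macrophage-like cells 0 of 41 were called higher and 3 lower, against 0.727% and 1.66% of all genes. In dendritic-like cells 1 of 32 were called higher and 1 lower, against 1.87% and 1.09% of all genes. The 3 genes called lower in monocyte-like and the 3 in macrophage-like cells all came from the list of genes that interleukin-1 induces in many cells.

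For CTX against MRX in neutrophil-like cells 2 of 29 were called higher and 4 lower, against 11.4% and 9.69% of all genes. In monocyte-like cells 2 of 43 were called higher and 2 lower, against 1.92% and 1.08% of all genes. In macrophage-like cells 2 of 44 were called higher and 0 lower, against 2.55% and 1.02% of all genes. In dendritic-like cells 6 of 39 were called higher and 0 lower, against 3.89% and 2.11% of all genes. Every call in the dendritic-like class was thus higher in CTX. For Combined against MRX in neutrophil-like cells 2 of 27 were called higher and 3 lower, against 6.7% and 6.7% of all genes. Of the genes in monocyte-like cells 2 of 41 were called higher and 2 lower, against 1.8% and 1.81% of all genes. Of those in macrophage-like cells 2 of 41 were called higher and 2 lower, against 2.48% and 1.87% of all genes. Of those in dendritic-like cells 2 of 29 were called higher and 0 lower, against 2.88% and 2.44% of all genes. The lists were chosen with earlier results known, and nothing particular to them is drawn from these counts.

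The other ligands and antagonists were led by Il18bp, which encodes a secreted protein that binds interleukin-18. It was called higher in CTX than in MRX in all 4 classes, with log2 ratios of 2.40 (interval 1.85 to 3.05) in neutrophil-like, 1.48 (interval 1.30 to 1.72) in monocyte-like, 1.77 (interval 1.57 to 2.06) in macrophage-like and 1.72 (interval 1.22 to 2.42) in dendritic-like cells. Its level in macrophage-like cells was 129 in Combined, 106 in CTX, 30.2 in MRX, then 43.9 in combod18t and 55.9 in ctxd18t CPM, so the day 18 libraries lay nearer to MRX. Combined against MRX gave 2.06 (interval 1.83 to 2.37) in macrophage-like and 1.33 (interval 1.10 to 1.61) in monocyte-like cells, both called higher. Il36g, a further interleukin-1 family ligand, was held by neutrophil-like cells, at 212 in Combined, 303 in CTX, 288 in MRX, then 591 in combod18t and 415 in ctxd18t CPM, and by the other 3 classes at no more than 1.97. Among the receptors, Il1rap, the co-receptor of Il1r1, stood at 191 to 751 CPM in neutrophil-like cells. Il1r1 itself was 0 to 15 CPM there, with at most 10 counts a library, and 24.4 to 77 in monocyte-like cells. Il1r1 was called higher in monocyte-like cells of combod18t than of ctxd18t, at 1.01 (interval 0.67 to 1.39). Il18r1, a chain of the interleukin-18 receptor, was called higher in dendritic-like cells of combod18t, at 1.36 (interval 1.10 to 1.66), in the class whose T cell markers are given above.

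Among inflammasome genes, Casp1, the protease that cleaves the interleukin-1 beta precursor, was at 57.1 in Combined, 55.5 in CTX, 25.8 in MRX, then 40.0 in combod18t and 46.8 in ctxd18t CPM in macrophage-like cells. It and Pycard, the adaptor between sensor and caspase, were called higher in dendritic-like cells of Combined than of MRX, at 1.25 (interval 0.82 to 1.74) and 1.60 (interval 1.30 to 1.93). Monocyte markers in the same cells stood at 1872 CPM in MRX and 3026 in Combined, and their part in these calls was not tested. P2rx7, a receptor for extracellular ATP, was called lower in neutrophil-like cells of combod18t than of ctxd18t, at -1.61 (interval -1.95 to -1.31). Txnip, which is known to bind thioredoxin and Nlrp3, was called higher in neutrophil-like cells of Combined than of CTX, at 1.44 (interval 1.11 to 1.79). Irak3, an inhibitor of interleukin-1 receptor signalling, was called lower in neutrophil-like cells of CTX than of MRX, at -1.46 (interval -2.01 to -0.98). Tnfaip3, a feedback inhibitor of NF-kB, was called higher in neutrophil-like cells of Combined than of CTX, at 1.06 (interval 0.61 to 1.53).

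Chemokine genes, which interleukin-1 induces in many cells, were called in both directions. Cxcl3, a neutrophil attractant, was called lower in neutrophil-like cells of CTX than of MRX (-1.58) and of Combined than of CTX (-1.51), its levels being 114 in Combined, 326 in CTX, 974 in MRX, then 377 in combod18t and 492 in ctxd18t CPM. Combined against MRX thus gave -3.09 (interval -3.62 to -2.62) there. In dendritic-like cells it was called higher in CTX than in MRX (2.20) and lower in Combined than in CTX (-1.09), from at most 121 counts. Cxcl1, of the same family, was called higher in neutrophil-like cells of Combined than of CTX, at 1.68 (interval 1.25 to 2.14), and of MRX, at 2.57 (interval 2.21 to 2.97). In monocyte-like cells it was called lower in Combined than in MRX (-1.26) and in combod18t than in ctxd18t (-1.51). Neutrophil markers in monocyte-like cells stood at 418 CPM in MRX and 182 in Combined, and their part in the call was not tested. Ccl4, an attractant of monocytes and T cells, was called higher in neutrophil-like cells of CTX than of MRX (1.43) and lower in monocyte-like cells of Combined than of CTX, at -1.67 (interval -1.85 to -1.51). At day 18 it was called lower in combod18t in monocyte-like (-1.42), macrophage-like (-1.34) and dendritic-like cells (-1.65). Cxcl3 was called lower at day 18 in monocyte-like (-1.88) and macrophage-like cells (-2.21), the latter from 6 counts against 129. Ccl3 was called higher in dendritic-like cells of Combined than of CTX (1.71) and lower in macrophage-like cells of Combined than of MRX (-1.52). Cxcl2 was called lower in dendritic-like cells of Combined than of CTX, at -1.35 (interval -1.51 to -1.20), and was the most abundant of these chemokines, at 10298 to 22113 CPM in neutrophil-like cells.

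The genes whose levels followed each member most closely were sought over 49 points of class and library, among 7429 genes. The points share libraries and are set mainly by class, so the values describe classes and carry no p. Il1b was followed most closely by Clec4n (Pearson r of log2(CPM + 1), 0.98), Clec7a (0.98) and Igsf6 (0.98). Il1rn was followed by Clec5a (0.98) and Msrb1 (0.97), and Nlrp3 by Pilra (0.97), Sirpb1b (0.97) and Il1b (0.97). Il1a was followed by Ptgs2os2 (0.94), Slfn4 (0.93) and Gpr84 (0.92), and Il1b ranked 104 for it, at 0.83. Il1r2 was followed by Ebi3 (0.92), Siglece (0.90) and Cd80 (0.90).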

How the data were processed

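The genes, the pathway lists and the tests were chosen with earlier results of these data known. The authors deposited whole-number UMI counts, 1 matrix a library, without normalisation. Cell Ranger 9.0.1 made them, as the protocol in the labels has it. GRCm39 and Seurat 5.2.0 are named in the submitters' processing notes, with no role given.

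Cells were kept with at least 200 genes and at most 15% mitochondrial counts. Scrublet, run with scanpy 1.11.5 at an expected doublet rate of 0.06, marked under 0.5% of cells by its own threshold, so cells scoring above the 95th percentile of their library were removed, which with ties left out came to 3.98 to 4.94% of cells. The 2000 most variable genes, without the members, the pathway lists and cell-cycle, ribosomal, mitochondrial, haemoglobin and antigen receptor genes, gave 30 principal components, and 15 nearest neighbours were clustered with leidenalg 0.10.2 at resolution 1, without integration. Each cluster was scored by class (mean of the 5 highest scaled markers) and named for the top score if 3 or more of that class's markers were seen in 10% of its cells. Clusters 14 and 17 also scored at least 0.5 times as high for another lineage, had over 1.5 times the median UMIs of their libraries and were left out as mixed. The scoring and this rule were set after seeing the clusters. Clusters with more markers of another class than of their own among the 10 leading genes were left unnamed or called by their leading gene. In alternative clusterings, a cluster took the group that most of its cells had in the first; this was chosen after seeing how cluster names shifted.

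For each library the counts of a class were summed and given as CPM with exact Poisson limits. Adding 1 CPM before the log2 ratio makes low genes look less changed. The limits of a ratio come from the exact binomial test given both counts, with no pseudocount. Sums rested on 316162 UMIs in neutrophil-like cells of Combined and up to 24184145 in macrophage-like cells of CTX. Named pathway genes are the 8 largest calls with at least 50 counts per comparison over the 4 classes, and Il36g, Il1rap, Il1r1 and the clusters described within classes were added after their values were seen. Some items that these rules select are not reported here. The ratio steps were tested on simulated data. Alternatives were median-of-ratios scaling, a pseudocount of 10 CPM, at least 500 genes a cell, no doublet removal, mixed clusters kept, resolution 2, each library clustered separately, cells thinned to 1000 UMIs, the mean of the CPM of each cell, and no filter on low counts.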

Additional observations from a re-analysis of the deposited data

Results flagged for a closer look

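For 5 values the Combined against CTX and the combod18t against ctxd18t ratios lay on opposite sides of 0, with both counting intervals excluding 0. The difference was not tested, since each ratio rests on 1 library a side. Il1b in neutrophil-like cells was 0.35 in the first pair and -0.20 at day 18, a gap of 0.55 on the log2 scale. Il1rn in neutrophil-like cells was 0.35 and -0.09, a gap of 0.44. Il1rn in macrophage-like cells was 0.12 and -0.42, a gap of 0.54. Il1b in dendritic-like cells was 0.07 and -0.92, a gap of 0.99. Il1r2 in dendritic-like cells was 0.32 and -0.36, a gap of 0.68. With median-of-ratios scaling 3 of the 5 remained, and in 2 the first pair's interval included 0, for Il1rn in macrophage-like cells (0.06, -0.02 to 0.15) and Il1b in dendritic-like cells (0.01, -0.05 to 0.06). All 5 also rest on the day 18 labels, whose barcode sets are those that the protocol gives to the opposite treatments. If those labels were exchanged, the day 18 values would be 0.20, 0.09, 0.42, 0.92 and 0.36 in the same order, and all 5 would lie on the side of the first pair. The 6 other values with both intervals excluding 0, which have the same sign as labelled, would then lie on opposite sides; among them Il1a in neutrophil-like cells would be -0.49 beside 0.97. The day, the labels, the barcode set and possibly the chip change together between the pairs and cannot be told apart.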

How the results depend on the processing

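No called value changed sign in any alternative. Of 777 values of single genes under alternatives, 508 moved by less than counting error and 269 by more. The count of called values for Combined against CTX was 2 in place of 0 with each library clustered separately. For combod18t against ctxd18t it was 1 in place of 0 with at least 500 genes per cell, with each library clustered separately, with cells thinned to 1000 UMIs and with no filter on low counts. For Combined against MRX it was 2 in place of 1 with no doublet removal and with no filter on low counts. Separate clustering gave Il1a in neutrophil-like cells of CTX against MRX a ratio of 0.45 in place of 1.04, and thinning gave Il1r2 there -1.13 in place of -1.85. Il1a in macrophage-like cells of CTX against MRX was 1.01 with a pseudocount of 10 CPM and held its call in 6 of 9 alternatives. The causes were not tested. The median gene moved by over 0.1 with median-of-ratios scaling in neutrophil-like cells of CTX against MRX (-0.22) and in the Ly6i-led cluster of Combined against MRX (0.11). The depth limits neutrophil-like cells of CTX and Combined (93 and 77 cells) and Il1a in dendritic-like cells (1 to 14 counts a library). No paired analysis was possible because each group holds 1 library, which is also why none was left out.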

Other observations

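Receptors of the family were also seen in lymphoid cells. These values describe clusters named by their leading genes, which include Il1r1 and Il1rl1 for the clusters concerned, and no comparison was made. A T-like cluster led by Scart2, Il23r and Il17a held Il1r1, the signalling receptor, at 419 CPM in MRX, 411 in Combined and 754 in combod18t, the libraries with at least 20 of its cells. The monocyte-like class held 24.4 to 77 CPM of it. The decoy receptor Il1r2 was at 96.5 to 149 CPM over the 5 libraries in a T-like cluster led by Il1rl1, Il2ra and Foxp3, genes of regulatory T cells, and at 44.8 to 202 in one led by Ccl1, Penk and Ifng. In T-like cells led by Gzmk, Ccl5 and Cd8a it was at 0.784 to 3.93, and in NK-like cells at 0.879 to 3.15.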
